A study of Mus musculus with 5 samples.

Results

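Interferon-stimulated genes and the sensors of foreign nucleic acid were followed in fetal mouse liver at E18.5. The set was 37 genes named by symbol, and all 37 were found among the 23022 genes of the authors' deposited comparison of 4N with WT liver. The 4N livers (n = 3) came from E18.5 embryos that carried an Hhex knockout and had received tetraploid embryonic stem cells (4N-ESCs, td-Tomato positive) as blastocysts. The WT livers (n = 2) came from normal E18.5 embryos without injection or knockout. The groups therefore differ at once in ploidy label, in the presence of injected cells, in the Hhex knockout and in embryo handling, and these cannot be told apart. The labels give no share of liver cells that derive from the injected cells. They also do not say that livers of a group came from separate litters, so p-values rest only on these 5 samples and may not reach beyond them. RNA was poly(A)-selected and sequenced. The values of single livers were not analysed here, so each gene has 1 mean per group, rebuilt from the overall mean and the fold change.

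Interferons are secreted when sensors such as MDA5, RIG-I or cGAS meet viral or misplaced nucleic acid. Type I interferon acts through the receptor IFNAR and the kinases JAK1 and TYK2, which switch on the factor ISGF3, with STAT2 and IRF9 among its subunits, at the interferon-stimulated response element (ISRE), whereas interferon gamma acts at the gamma-activated site (GAS). The induced genes encode antiviral effectors, GTPases that attack intracellular pathogens, and the sensors themselves, and many of them keep a low constitutive level in healthy liver.

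Of the 37 genes, 12 were lower and 4 were higher in 4N than in WT liver at an adjusted p under 0.05 (the authors' Wald test with Benjamini-Hochberg adjustment over all 23022 genes). These counts are 32.4% of the set lower and 10.8% higher, beside 7.41% lower and 7.94% higher over all genes of the table, and beside 10.3% lower and 11% higher among the 12699 genes whose mean was at least that of the lowest gene of the set. The share of higher genes was thus close to the background, and the share of lower genes was above it. The set was chosen with earlier results of these data known, so the comparison is a description and no independent test. The median log2 fold change in the authors' deposited table was -0.41 for the set and -0.0010 for all genes, and 28 of the 37 values lay below 0. The 12 lower genes were Zbp1, Iigp1, Mx2, Ifit1, Gbp3, Ifitm3, Gbp2, Parp14, Irgm1, Usp18, Stat2 and Irf1. The 4 higher genes were Oas3, Rsad2, Xaf1 and Ifi27. Among these 16 genes, 8 were lower and 2 were higher by at least 2-fold. The split depended on which genes set the zero point. At the median of highly counted genes (means of 10000 or more), 13 of the 37 were lower and 3 higher, beside 1921 lower and 1663 higher over all genes. Moving it to the median of 27 secreted plasma protein genes shifted all log2 fold changes up by 0.60. On this plasma protein scale 5 of the 37 genes were lower and 8 higher, beside 835 lower and 7089 higher over all genes. On that scale the median of the set was 0.19 and that of all genes 0.60. Zbp1, Iigp1, Mx2, Ifit1 and Gbp3 were lower with each of these zero points and also when tested against a 1.5-fold change, where the other 11 calls were lost. Over all genes, 588 were lower and 521 higher in that test. When the Wald statistic was read against a t distribution (3 df), 0 of the 23022 genes passed. At an unadjusted p under 0.05, 10 genes of the set were lower and 1 higher, beside 1224 lower and 1289 higher over all genes.

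**Figure D1:**
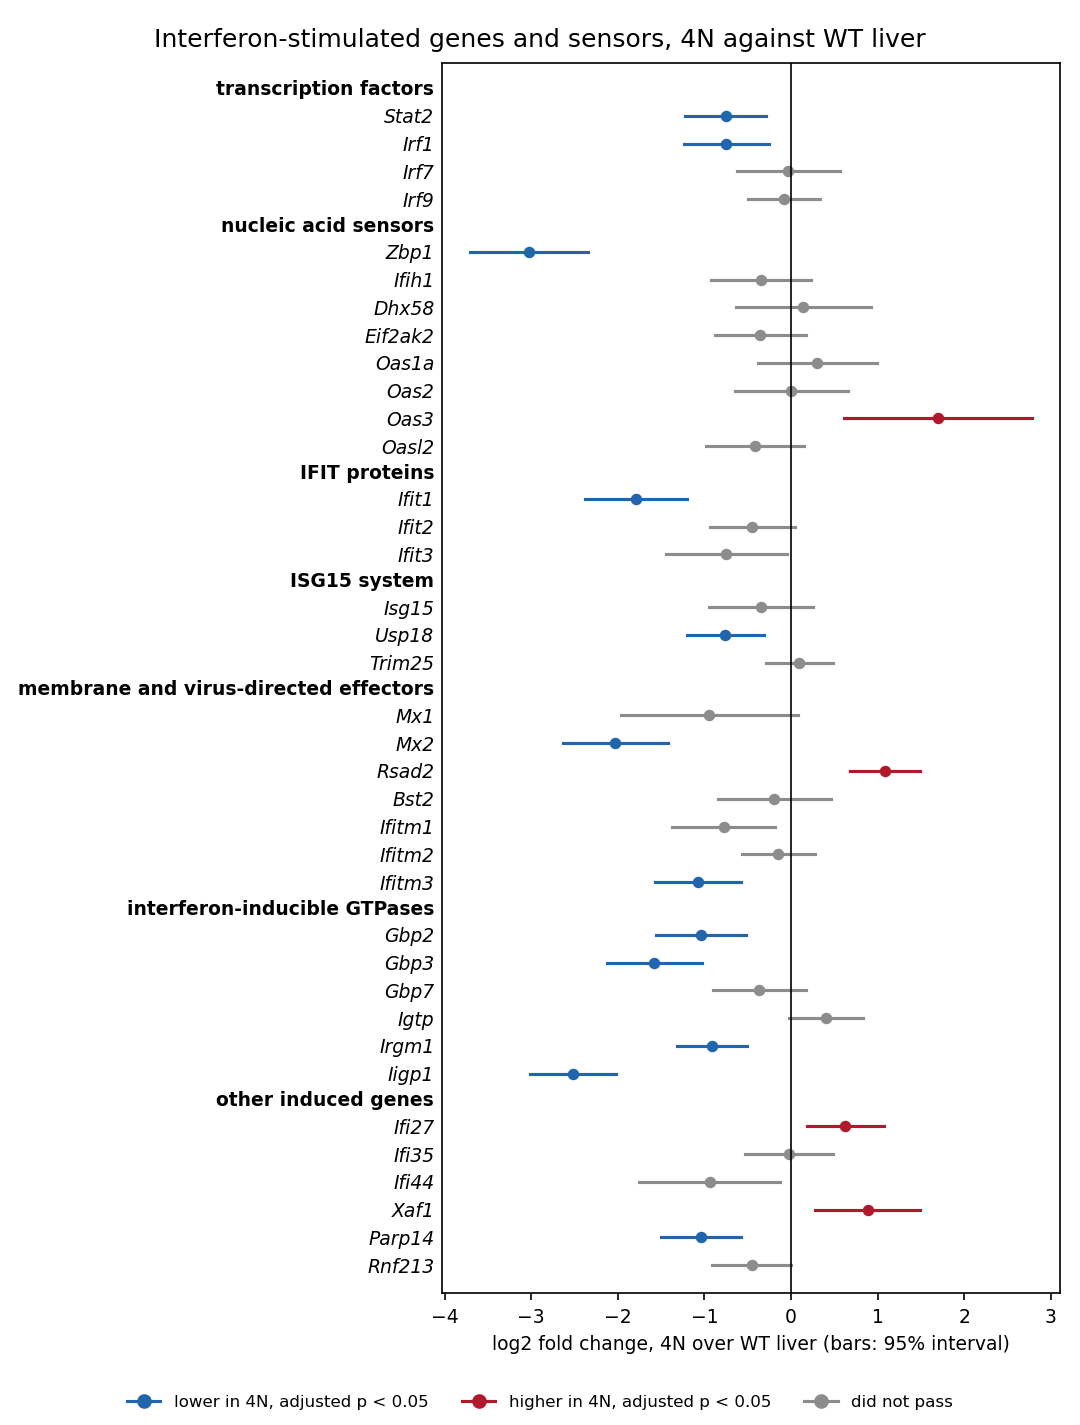
Log2 fold change of 4N over WT liver for each of the 37 genes, ordered by role (points; bars are 95% intervals from the standard error; 3 and 2 libraries), with genes that passed an adjusted p under 0.05 in colour. Zbp1 at -3.03 and Iigp1 at -2.52 lie farthest to the left and Oas3 at 1.69 farthest to the right; moving the zero point to plasma protein genes adds 0.60 to every value.

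The genes were measured well above the counting floor. Their mean normalized counts ran between 181 for Mx1 and 16885 for Iigp1, and the fold change showed no trend with the mean across them (Spearman rho 0.08 across 37 genes, which are not independent replicates). The standard errors of the log2 fold changes in the authors' deposited table had a median of 0.28 and a range of 0.20 to 0.55. They imply a median coefficient of variation within a group of 20.7%, beside 19.8% for the 12699 genes of comparable or higher mean. These coefficients were computed back from the standard errors and are not a measured spread between livers. Of the 21 genes that did not pass, 17 had a 95% interval that stayed within a 2-fold change either way.

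The promoters of the set were read next for the response elements of both interferon types. RefSeq windows on the build GRCm38.p6, with 250 bases before and 50 after the annotated start, matched 28 of the 37 genes by symbol (the authors' build is GRCm39); Zbp1, Mx1, Mx2, Usp18, Iigp1, Parp14, Dhx58, Ifi27 and Oas2 had none. The ISRE core GAAANNGAA, searched on both strands, was present in 19 of the 28 genes (67.9%), and 11 of the 28 held at least 2 matches. It was present in 8.56% of all 32851 windows, a share counted by window and not by gene. Counted by gene outside the set, 1229 measured genes had a match and 12696 had none. The GAS motif TTCNNNGAA, which reads the same on both strands, was present in 9 of the 28 genes (32.1%) and in 8.30% of all windows. By gene outside the set, 1189 had a GAS match and 12736 had none. In 2 genes of the set the matches of both motifs overlapped.

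Windows of 180 bases are given for 4 lower genes, 2 higher genes and Isg15, which did not pass, with ISRE matches in capitals, and for Irf1 with its GAS match in capitals. Each runs 5′ to 3′ along the gene's strand, with 150 bases before the start and 30 from it on. The ISRE capitals at lower and higher genes were found with the same motif, so their likeness follows from the search.
Ifit1 (ISRE, chr19:34640739-34640918, + strand): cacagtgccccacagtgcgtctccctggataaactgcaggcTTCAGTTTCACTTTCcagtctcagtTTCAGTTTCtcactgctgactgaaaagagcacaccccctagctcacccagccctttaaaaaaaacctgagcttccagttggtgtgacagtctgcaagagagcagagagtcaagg
Gbp3 (ISRE, chr3:142559894-142560073, + strand): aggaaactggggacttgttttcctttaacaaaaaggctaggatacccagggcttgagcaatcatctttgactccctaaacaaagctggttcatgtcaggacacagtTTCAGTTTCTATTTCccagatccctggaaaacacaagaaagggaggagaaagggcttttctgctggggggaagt
Irgm1 (ISRE, chr11:48871391-48871570, - strand): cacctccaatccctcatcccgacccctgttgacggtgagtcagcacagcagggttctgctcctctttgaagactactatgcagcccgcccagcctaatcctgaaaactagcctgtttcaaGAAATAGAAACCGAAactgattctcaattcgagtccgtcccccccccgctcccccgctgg
Ifitm3 (ISRE, chr7:141010715-141010894, - strand): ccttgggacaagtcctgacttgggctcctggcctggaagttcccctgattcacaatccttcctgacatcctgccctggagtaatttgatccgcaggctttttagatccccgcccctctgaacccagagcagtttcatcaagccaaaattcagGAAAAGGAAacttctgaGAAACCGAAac
Oas3 (ISRE, chr5:120777630-120777809, - strand): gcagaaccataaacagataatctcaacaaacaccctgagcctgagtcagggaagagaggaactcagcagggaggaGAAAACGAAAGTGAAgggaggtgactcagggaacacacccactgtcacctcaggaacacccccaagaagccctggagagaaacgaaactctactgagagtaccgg
Rsad2 (ISRE, chr12:26456423-26456602, - strand): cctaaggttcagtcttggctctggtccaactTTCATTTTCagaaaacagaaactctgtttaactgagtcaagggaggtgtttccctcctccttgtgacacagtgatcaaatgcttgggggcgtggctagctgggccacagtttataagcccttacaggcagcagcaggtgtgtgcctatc
Isg15 (ISRE, chr4:156200789-156200968, - strand): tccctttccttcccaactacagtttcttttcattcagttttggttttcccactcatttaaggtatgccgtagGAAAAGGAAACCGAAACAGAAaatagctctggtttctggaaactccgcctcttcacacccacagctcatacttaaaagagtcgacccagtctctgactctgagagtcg
Irf1 (GAS, chr11:53769864-53770043, + strand): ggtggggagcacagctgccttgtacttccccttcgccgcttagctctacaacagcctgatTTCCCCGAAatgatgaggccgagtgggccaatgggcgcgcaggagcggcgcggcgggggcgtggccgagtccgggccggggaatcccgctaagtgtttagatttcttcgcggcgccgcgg
In the Ifit1 window 2 matches overlapped as a tandem, with first bases at -109 and -103 from the start. The Gbp3, Irgm1, Oas3 and Isg15 windows held the same kind of tandem, closer to the start, while Ifitm3 carried its matches after the start. Of the genes with an ISRE match, 6 were lower, 2 higher and 11 did not pass (median log2 fold change -0.35). Of the 9 genes with a window but no ISRE match, 1 was lower, 1 higher and 7 did not pass (median -0.41). These medians leave out the genes without a window, among them the lowest values of the set, Zbp1 (-3.03), Iigp1 (-2.52) and Mx2 (-2.03). Usp18 and Parp14, also lower, and Ifi27, which was higher, had no window either, and Mx1, Dhx58 and Oas2 did not pass. A match describes the letters in the window and not binding.

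**Figure D2:**
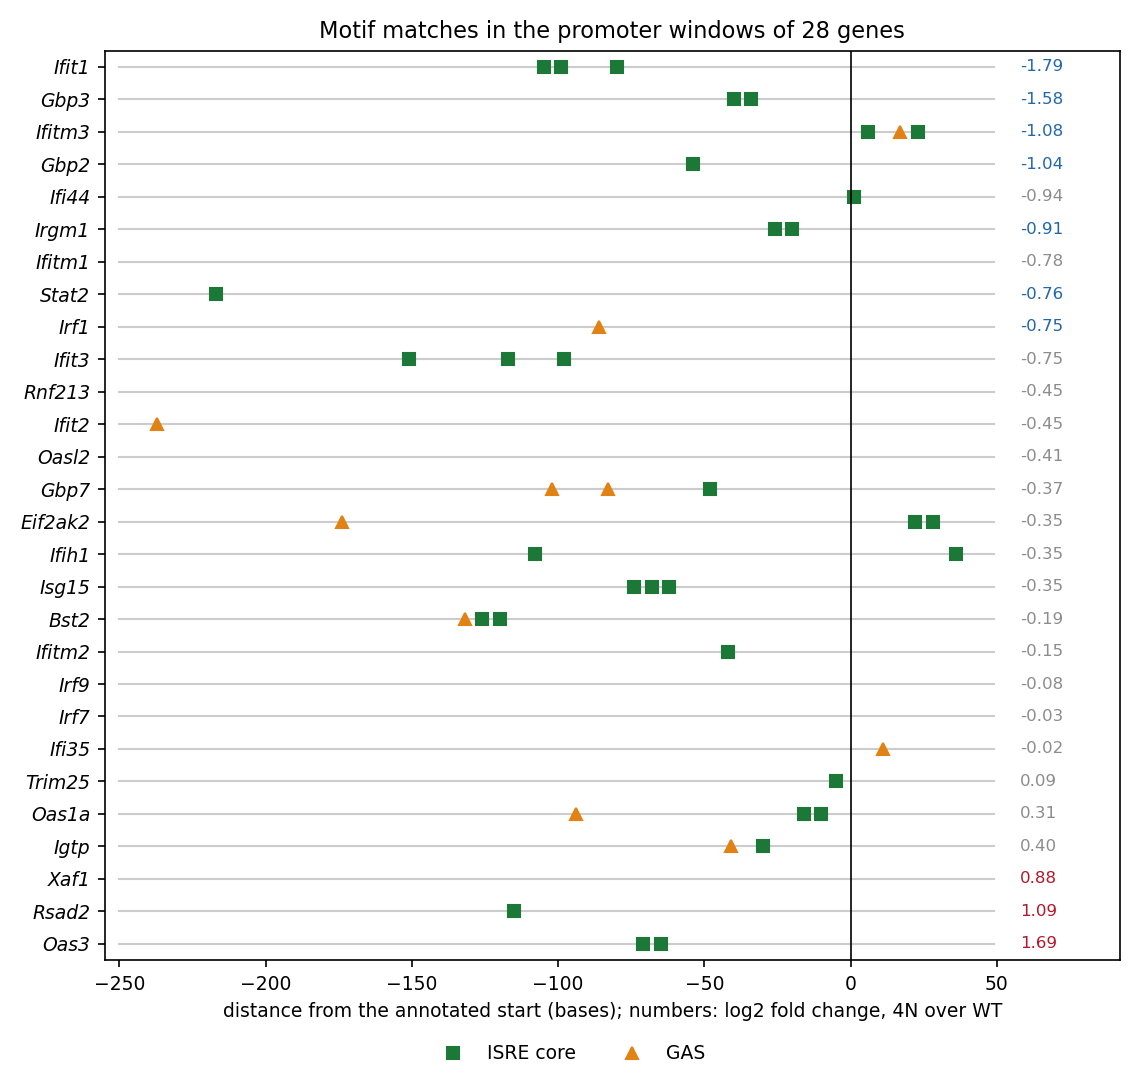
Positions of ISRE core matches (squares) and GAS matches (triangles) in bases from the annotated start for the 28 genes with a promoter window, in order of their log2 fold change of 4N over WT liver (numbers at the right). ISRE matches are spread over the order, from Ifit1 at -1.79 with 3 matches to Oas3 at 1.69 with 2.

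Outside the set, genes with a promoter ISRE were called about as often as genes without one. Of 1229 other genes with a match, 8.14% were lower (95% exact binomial interval 6.67 to 9.81%) and 9.60% higher (8.01 to 11.4%) in 4N liver, beside 8.18% lower and 9.37% higher among 12696 genes without one. Their median log2 fold changes were 0.05 with and 0.01 without a match. The 511 genes whose match was followed by 1 more A were lower in 9.59% and higher in 9.59%, beside 8.13% lower and 9.38% higher among 13414 genes without that match. The 1189 other genes with a GAS match were lower in 6.90% (5.52 to 8.49%) and higher in 7.32% (5.90 to 8.95%), beside 8.30% lower and 9.58% higher among 12736 genes without one. For GAS the share of higher genes was thus 7.32% with a match and 9.58% without one, and this difference was not tested. The binomial intervals count genes as independent draws, although all genes were read in the same 5 libraries. These intervals can therefore be too narrow, and no comparison of shares rests on them.

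Of the 4 transcription factors of the set, 2 fell in 4N liver. Stat2, the subunit of ISGF3 that contacts the type I receptor, had a mean of 3529 normalized counts in 4N livers and 5962 in WT livers. Its log2 fold change in the authors' deposited table was -0.76 (SE 0.24, adjusted p = 0.014). Irf1, a factor induced chiefly by interferon gamma that drives the GTPase genes, averaged 1689 in 4N livers against 2834 in WT livers, with a log2 value in the authors' deposited table of -0.75 (SE 0.25, adjusted p = 0.024). Irf9, the DNA-binding subunit of ISGF3, and Irf7, which amplifies the transcription of interferon genes, stood at -0.08 and -0.03 in the authors' deposited table (adjusted p = 0.87 and 0.97). The calls of Stat2 and Irf1 were lost with the zero point on plasma protein genes (log2 values -0.15 and -0.14), where Irf9 passed with 0.52.

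The 8 sensors contained both the lowest and the highest value of the set. Zbp1, which senses nucleic acid in the Z form and can start necroptosis, had 80.8 normalized counts in 4N livers and 659 in WT livers. Its level in 4N liver was 12.3% of that in WT liver, and the authors' deposited table gives -3.03 (SE 0.35, adjusted p = 4.4e-16). The 95% interval of that log2 value ran from -3.71 to -2.35, clear of every other sensor. Oas3 makes an oligoadenylate messenger on meeting double-stranded RNA. It had 285 normalized counts in 4N livers and 88.0 in WT livers, with 1.69 in the authors' deposited table (SE 0.55, adjusted p = 0.019). Oas3 was also the least precise gene of the set, with an implied coefficient of variation of 41.1%. Its relatives did not pass: the authors' deposited table gives 0.31 for Oas1a, 0.00 for Oas2 and -0.41 for Oasl2, with adjusted p-values of 0.67, 1 and 0.39. Nor did the RNA helicase genes Ifih1 (MDA5), at -0.35, and Dhx58 (LGP2), at 0.14, or Eif2ak2 (PKR, the kinase that halts translation on double-stranded RNA), at -0.35, in the authors' deposited table (adjusted p between 0.44 and 0.89).

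Among the IFIT proteins, which bind foreign RNA ends and block their translation, Ifit1 fell to 272 normalized counts in 4N livers, against 942 in WT livers. The authors' deposited table gives it -1.79 (SE 0.30, adjusted p = 1.1e-07). Ifit2 and Ifit3 stood at -0.45 and -0.75 in the authors' deposited table and did not pass (adjusted p = 0.26 and 0.16). The Ifit genes are close copies, and reads that fit more than 1 of them make their single values uncertain; the same holds for the Oas, Mx, Gbp, Ifitm and immunity-related GTPase genes.

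In the ISG15 system, Usp18, the protease that removes ISG15 from proteins and also restrains the type I receptor, had 917 normalized counts in 4N livers and 1554 in WT livers. The authors' deposited table gives -0.76 (SE 0.23, adjusted p = 0.0081). Isg15 itself, the ubiquitin-like modifier, stood at -0.35 in the authors' deposited table (SE 0.31, adjusted p = 0.54). Trim25, a ubiquitin ligase that activates RIG-I, had 10011 normalized counts in 4N livers and 9383 in WT livers. In the authors' deposited table its log2 value was 0.09 (SE 0.20, adjusted p = 0.84). Usp18 was thus lower while the modifier did not pass, and the Usp18 call was lost on the plasma protein scale.

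Of the 7 membrane and virus-directed effectors, 2 were lower, 1 was higher and 4 did not pass. Mx2 had 189 normalized counts in 4N livers and 772 in WT livers, and the authors' deposited table gives -2.03 (SE 0.31, adjusted p = 3.1e-09). Mx proteins are GTPases that trap incoming viruses, but Mx1 and Mx2 are both listed as transcribed pseudogenes in the RefSeq annotation of GRCm38.p6, as in many laboratory mouse strains. Mx1 did not pass at -0.94 in the authors' deposited table (SE 0.52, adjusted p = 0.25). Ifitm3, which blocks fusion of viruses in endosomes, averaged 2322 in 4N livers and 4892 in WT livers, with -1.08 in the authors' deposited table (SE 0.25, adjusted p = 0.00034). The Ifitm3 call was lost on the plasma protein scale, as was that of Parp14. The Ifitm3 neighbours in the same cluster, Ifitm1 and Ifitm2, stood at -0.78 and -0.15 in the authors' deposited table (adjusted p = 0.062 and 0.75). Rsad2 encodes viperin, an enzyme that turns a nucleotide into a terminator of viral RNA synthesis. It rose, with 15090 normalized counts in 4N livers and 7090 in WT livers. The authors' deposited table gives it 1.09 (SE 0.21, adjusted p = 3.9e-06). Bst2, the tetherin that holds budding viruses at the cell surface, stood at -0.19 in the authors' deposited table (adjusted p = 0.80).

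Of the 6 interferon-inducible GTPases, 4 fell. These proteins coat and break the vacuoles of intracellular pathogens. Iigp1, an effector of the immunity-related family, had 5843 normalized counts in 4N livers and 33447 in WT livers. Its level in 4N liver was 17.5% of that in WT liver, and the authors' deposited table gives -2.52 (SE 0.25, adjusted p = 5.2e-21). Gbp3 had 330 normalized counts in 4N livers and 986 in WT livers, with -1.58 in the authors' deposited table (SE 0.28, adjusted p = 5e-07). Gbp2 had 511 in 4N livers and 1054 in WT livers, with -1.04 in the authors' deposited table (SE 0.27, adjusted p = 0.0012). Both guanylate-binding proteins were lower, whereas Gbp7 did not pass at -0.37 in the authors' deposited table (adjusted p = 0.44). Irgm1, which keeps the effector GTPases inactive on host membranes, averaged 2865 in 4N livers and 5385 in WT livers, with -0.91 in the authors' deposited table (SE 0.21, adjusted p = 0.00021). Igtp, another regulator of this kind also known as Irgm3, had 6195 in 4N livers and 4694 in WT livers. The authors' deposited table gives it 0.40 (SE 0.22, adjusted p = 0.24). With the zero point on plasma protein genes, the calls of Gbp2 and Irgm1 were lost and Igtp passed as higher (1.00).

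Of the remaining 6 induced genes, Parp14 fell and Xaf1 and Ifi27 rose. Parp14, an ADP-ribosyltransferase, had 1847 normalized counts in 4N livers and 3807 in WT livers, with -1.04 in the authors' deposited table (SE 0.24, adjusted p = 0.00019). Xaf1, a partner of the apoptosis inhibitor XIAP, had 883 in 4N livers and 479 in WT livers, with 0.88 in the authors' deposited table (SE 0.31, adjusted p = 0.031). Ifi27 had 1125 in 4N livers and 728 in WT livers, with 0.63 in the authors' deposited table (SE 0.23, adjusted p = 0.041). With the zero point at the median of highly counted genes (means of 10000 or more), the Ifi27 call of the Wald test was lost (adjusted p = 0.069). Rnf213, a very large ubiquitin ligase, had 6199 in 4N livers and 8494 in WT livers. The authors' deposited table gives it -0.45 (SE 0.23, adjusted p = 0.20). Ifi35 and Ifi44 stood at -0.02 and -0.94 in the authors' deposited table (adjusted p = 0.97 and 0.12). The 95% interval of Ifi44 ran from -1.75 to -0.12.

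**Figure D3:**
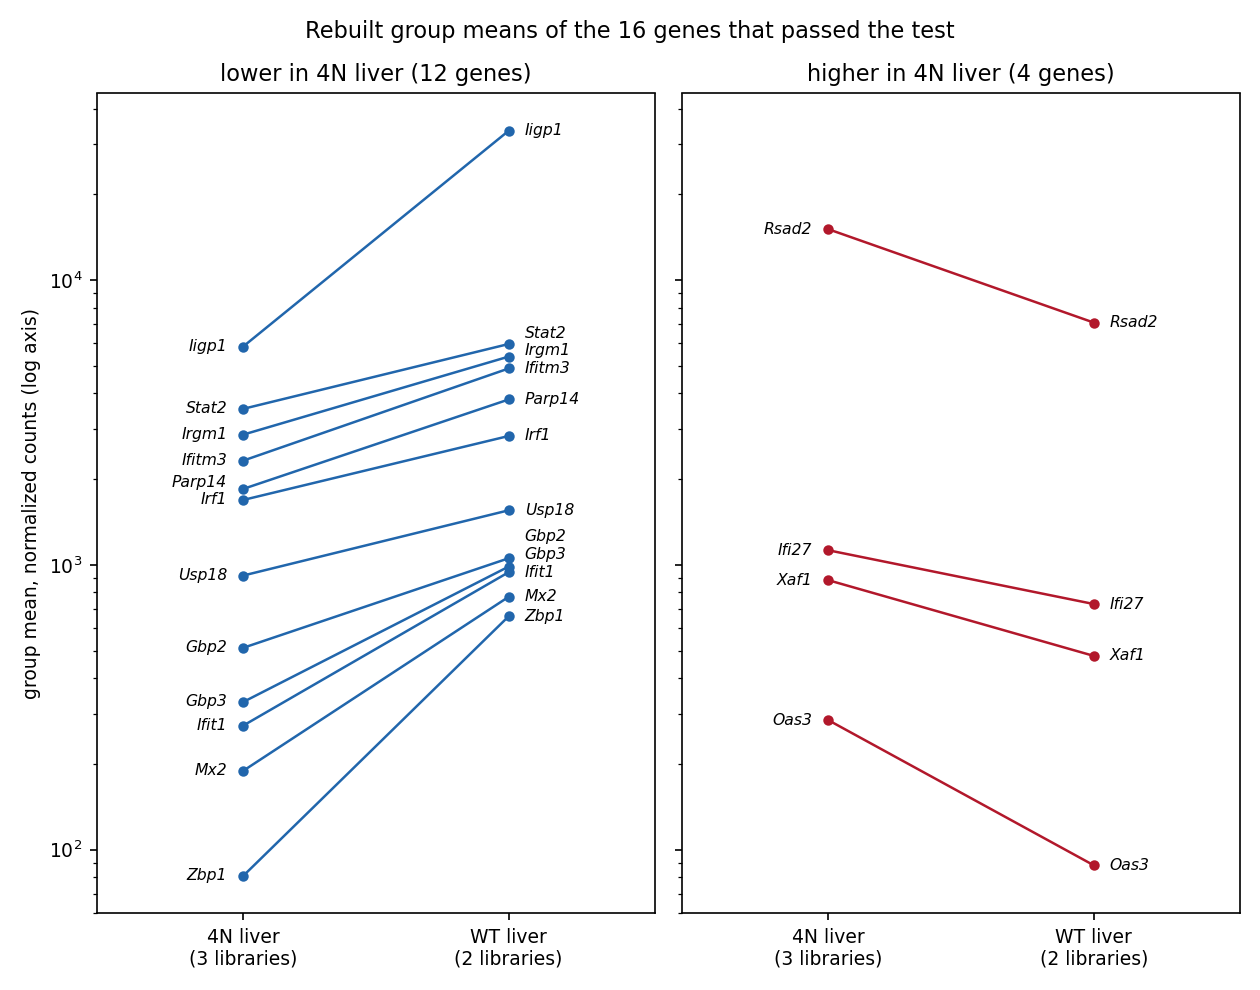
Rebuilt group means in normalized counts (log axis) of the 16 genes that passed an adjusted p under 0.05, each joined between 4N livers (left, 3 libraries) and WT livers (right, 2 libraries); values of single livers were not analysed here, so no spread is drawn. Zbp1, at 80.8 in 4N and 659 in WT livers, and Iigp1, at 5843 in 4N and 33447 in WT livers, have the steepest lines.

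The signalling chain above these genes was described next. Of 27 listed interferon ligands, receptors and JAK-STAT genes, 19 were in the table, and 1 of them passed, as lower, beside 7.41% lower and 7.94% higher over all genes. By the authors' Wald test none of the 19 passed as higher, and 1 was higher at an unadjusted p under 0.05. The median of the list was 0.08. The receptor genes Ifnar1, Ifnar2, Ifngr1, Ifngr2 and Ifnlr1 stood at 0.08, 0.37, -0.46, -0.28 and 0.06 in the authors' deposited table, and the kinase genes Jak1, Jak2 and Tyk2 at -0.18, 0.26 and 0.12. With the zero point on plasma protein genes, 11 of the 19 were higher, as were 7089 of all genes.

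Other sensors, their adaptors and the nucleases that restrain them came from a list of 31 genes. Of these 26 were in the table, 1 was lower and 1 was higher, beside 7.41% lower and 7.94% higher over all genes, with a median of 0.12. Tlr3, the endosomal receptor for double-stranded RNA, had 287 normalized counts in 4N livers and 744 in WT livers, with -1.38 in the authors' deposited table (SE 0.34, adjusted p = 0.00081). The DNA sensor gene Cgas and its adaptor gene Sting1 stood at -0.36 and 0.46 in the authors' deposited table (adjusted p = 0.51 and 0.43). Ddx58, which encodes RIG-I, and its adaptor gene Mavs stood at -0.65 and 0.37 in the authors' deposited table (adjusted p = 0.065 and 0.27). On the plasma protein scale 13 of the 26 were higher, as were 7089 of all 23022 genes, and the Tlr3 call of the Wald test was lost (-0.77, adjusted p = 0.063).

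A further list of 50 interferon-stimulated genes outside the set had 49 in the table. Of these 12 were lower and 2 higher, beside 7.41% lower and 7.94% higher over all genes, and their median log2 fold change was -0.42. This list, too, was chosen with earlier results of these data known. The lowest adjusted p-values among the lower genes belonged to Dtx3l, Parp9, Tgtp1 and Nmi. Dtx3l, a ubiquitin ligase, had 2481 normalized counts in 4N livers and 6692 in WT livers, with -1.43 in the authors' deposited table (SE 0.25, adjusted p = 2.7e-07). Parp9, its ADP-ribosyltransferase partner, had 1995 in 4N livers and 4852 in WT livers, with -1.28 in the authors' deposited table (SE 0.24, adjusted p = 2.3e-06). Tgtp1, an immunity-related GTPase, had 406 in 4N livers and 1226 in WT livers, with -1.59 in the authors' deposited table (SE 0.31, adjusted p = 1e-05). Nmi, a STAT-interacting protein, had 431 in 4N livers and 1228 in WT livers, with -1.51 in the authors' deposited table (SE 0.32, adjusted p = 5.4e-05). The 2 higher genes were enzymes of ISG15 conjugation. Ube2l6 had 25153 in 4N livers and 10586 in WT livers, with 1.25 in the authors' deposited table (SE 0.20, adjusted p = 2.7e-08). Uba7 had 5351 in 4N livers and 3203 in WT livers, with 0.74 in the authors' deposited table (SE 0.25, adjusted p = 0.028). On the plasma protein scale 4 of the 49 were lower and 9 higher, beside 835 lower and 7089 higher of all 23022 genes.

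**Figure D4:**
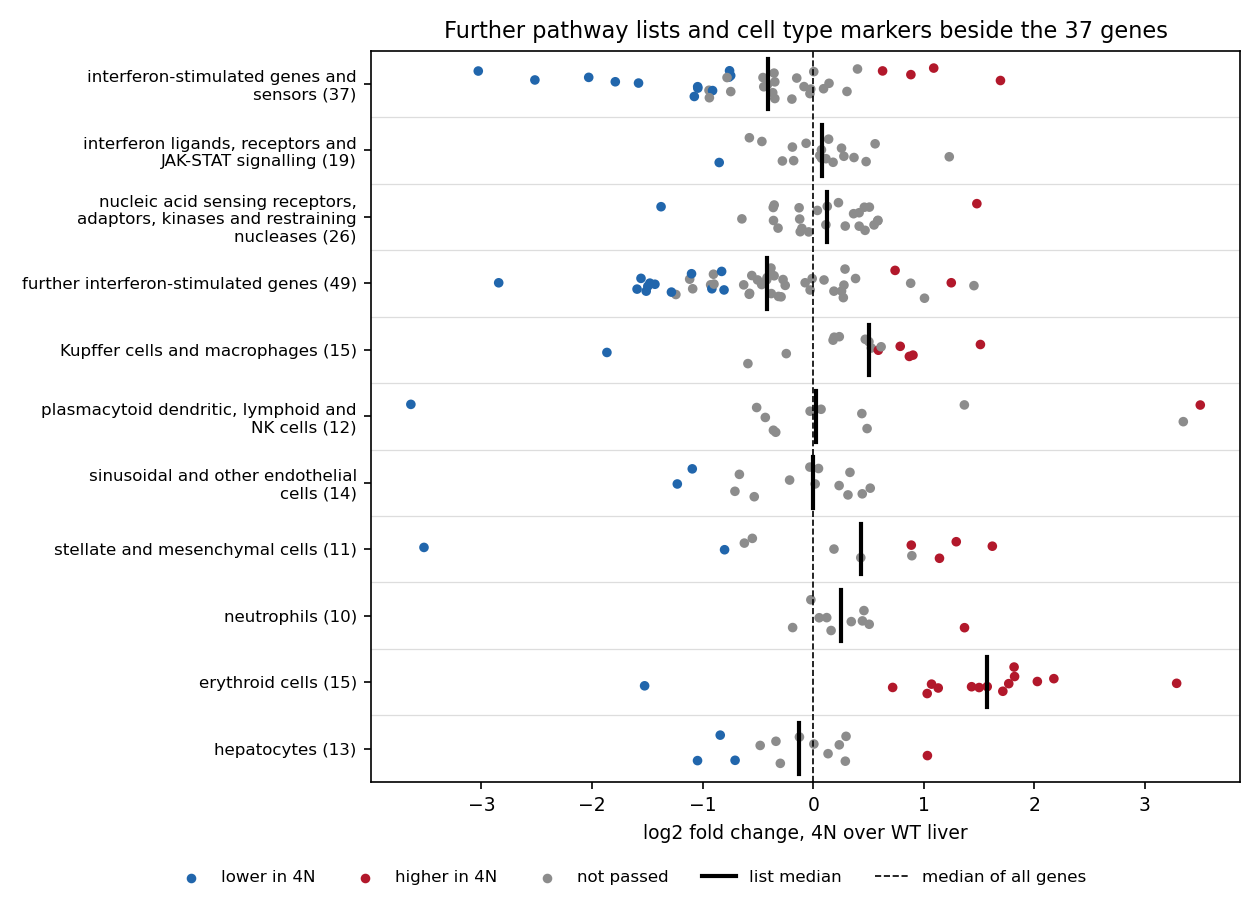
Log2 fold change of 4N over WT liver for every measured gene of the set, of the pathway lists and of the cell type marker lists (points, number of genes in parentheses, colour by call), with each list's median (thick bar) and the median of all genes (dashed line). The medians of the set and of the further interferon-stimulated genes lie at -0.41 and -0.42, that of the erythroid markers at 1.57; moving the zero point to plasma protein genes adds 0.60 to every value.

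Grouped by complex or family, a choice made after the values were seen, the calls are given beside those of all genes. There 7.41% were lower and 7.94% higher, and on the plasma protein scale 835 were lower and 7089 higher of 23022 genes. In the ISG15 pathway the activating enzyme Uba7 and the conjugating enzyme Ube2l6 were higher, whereas the mouse ligase Herc6 and the protease Usp18 were lower. Herc6 had 598 normalized counts in 4N livers and 1283 in WT livers, with -1.10 in the authors' deposited table (SE 0.32, adjusted p = 0.0065). With the zero point on plasma protein genes, Trim25 passed as higher too, and the calls of Herc6 and Usp18 were lost, with values still below 0. Of the 8 OAS genes, Oas3 was higher and the other 7 did not pass, a share close to that of all genes. Oas1a passed as higher too on the plasma protein scale, where higher calls were common over all genes. Dtx3l, Parp9 and Parp14, whose proteins act together in ADP-ribosylation, were all 3 lower, and on the plasma protein scale Dtx3l and Parp9 were lower and Parp14 did not pass.

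Several genes of the GTPase families, also grouped after the values were seen, passed as lower. Over all genes the shares were 7.41% lower and 7.94% higher. Of the 11 guanylate-binding protein genes in the authors' deposited table, 10 were below 0, and Gbp2, Gbp3, Gbp4, Gbp6, Gbp10 and Gbp11 passed as lower, while Gbp8 stood at 0.23 (adjusted p = 0.69). Gbp10 had 24.1 normalized counts in 4N livers and 377 in WT livers, with -3.97 in the authors' deposited table (SE 0.45, adjusted p = 9.8e-17). Gbp11, a transcribed pseudogene in RefSeq, had 624 in 4N livers and 9701 in WT livers, with -3.96 in the authors' deposited table (SE 0.72, adjusted p = 1.2e-06). The implied coefficient of variation was high, at 54.5% for Gbp11 and 154% for Gbp2b, which did not pass. On the plasma protein scale 9 of the 11 were below 0, Gbp3, Gbp10 and Gbp11 were lower and Gbp8 was higher. Of the 7 immunity-related GTPase genes in the lists, Irgm1, Iigp1, Ifi47 and Tgtp1 were lower, while Irgm2 and Igtp stood at 0.29 and 0.40 in the authors' deposited table and did not pass. On the plasma protein scale 2 of these 7 were lower and 2 higher, beside 835 lower and 7089 higher of all 23022 genes. Of the 6 Ifit genes, 5 were below 0 in the authors' deposited table and Ifit1 and Ifit3b passed, while Ifit1bl2 stood at 0.55 (adjusted p = 0.76). Only Ifit1 of the 6 passed as lower on the plasma protein scale, where 4 were below 0. Rsad2 and its neighbour Cmpk2, which supplies a substrate to viperin, did not both pass. Cmpk2 had 1664 normalized counts in 4N livers and 1373 in WT livers and stood at 0.28 in the authors' deposited table (SE 0.22, adjusted p = 0.48), while on the plasma protein scale both genes were higher.

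**Figure D5:**
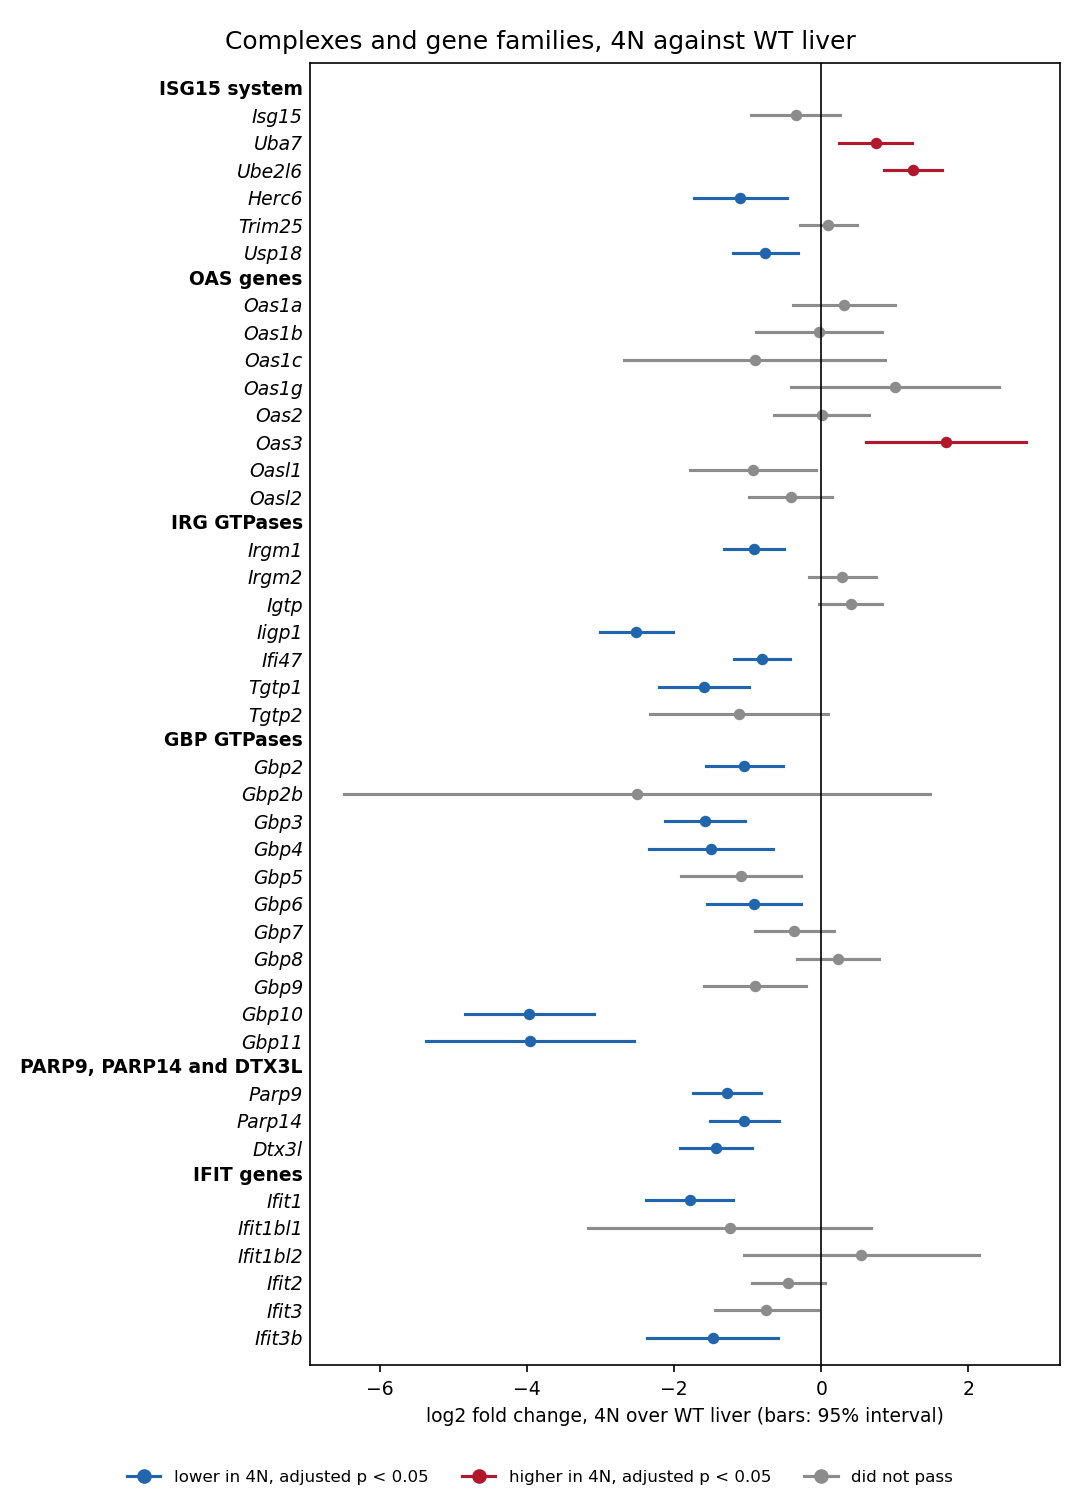
Log2 fold change of 4N over WT liver (points; bars are 95% intervals) for genes grouped by complex or family, a grouping chosen after the values were seen. Within the ISG15 system Ube2l6 and Uba7 lie to the right at 1.25 and 0.74 and Herc6 and Usp18 to the left at -1.10 and -0.76; moving the zero point to plasma protein genes adds 0.60 to every value and leaves these 4 on their sides.

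Some cell type markers of the fetal liver, which also holds blood-forming cells, passed as lower or higher as well. The shares over all genes were 7.41% lower and 7.94% higher, and 10.3% and 11% among the 12699 genes compared with the set above. A single call among 10 or 12 markers is close to these shares, and no marker list was tested against them. In bulk RNA fewer cells of a type and less RNA per cell cannot be told apart. Erythroid markers summed to 3491470 normalized counts in 4N livers and 1051850 in WT livers, and 14 of 15 were higher and 1 lower, led by Hba-a2 at 3.29 and Trim10 at 2.18 in the authors' deposited table. Kupffer cell and macrophage markers summed to 93220 in 4N livers and 69084 in WT livers, with 5 of 15 higher and 1 lower (Vsig4 -1.87 and Csf1r 0.87 in the authors' deposited table). Plasmacytoid dendritic, lymphoid and NK cell markers summed to 7278 in 4N livers and 8136 in WT livers, with 1 of 12 higher and 1 lower. These were the dendritic marker Siglech at 3.50 and the B cell marker Ms4a1 at -3.64 in the authors' deposited table. Endothelial markers summed to 62376 in 4N livers and 66578 in WT livers, with 2 of 14 lower (Fcgr2b -1.09 and Clec4g -1.23 in the authors' deposited table). Stellate and mesenchymal markers summed to 88698 in 4N livers and 53995 in WT livers, with 4 of 11 higher and 2 lower (Rgs5 -3.52 and Col1a1 1.62 in the authors' deposited table). Neutrophil markers summed to 207993 in 4N livers and 189673 in WT livers. Of the 10, 1 was higher, Retnlg at 1.37, and Ltf stood at 0.46 in the authors' deposited table (adjusted p = 0.20). Of the 13 hepatocyte markers 3 were lower and 1 higher. Apob stood at -1.05 and Afp at 1.03 in the authors' deposited table. Every hepatocyte marker had a mean of at least 1537, and Alb alone took up 7.94% of the summed means. None of the measured markers had 0 reads in a group, and the part of these cells in the values of the interferon genes was not tested.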

How the data were processed

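The authors measured RNA of 3 4N and 2 WT livers. One comparison table was used; the values of single livers were not analysed here. The submitters' processing notes name the build GRCm39; for the aligner and the counter the entry is not given in the sources used here. Per the file headers, each gene has a signal, the mean of its normalized counts across the 5 libraries. The deposited fold changes, with their errors, are log2 values. The deposited Wald statistic, a score, divides each fold change by its error. The authors computed a p-value per gene and adjusted it, under the column names that DESeq2 writes, per the file headers. On recomputation all 23022 p-values matched the 2-sided normal tail, and all adjusted ones the Benjamini-Hochberg adjustment, within 1%.

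The table does not name the numerator of its folds. It was read from genes taken to have no reads in 1 group, by a rebuilt group mean under 0.3. A fit that holds each library at no less than 0.5 counts was assumed. Under it the standard error cannot lie below 1.44 with 2 empty libraries, and with 3 not below 1.18. Of the 247 such genes with a negative fold 12 lay below 1.44, and of the 606 with a positive fold 0, so folds were read as 4N over WT. Group means were rebuilt from the overall mean, the fold and the library numbers, with 95% intervals from a normal quantile and coefficients of variation from the standard error. The depth of each library is unknown, and the 5 libraries limit the precision. The summed means come to 78112300 normalized counts.

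The members and the gene lists were chosen with earlier results of these data known. Every gene of the set is named; those with an adjusted p under 0.05, and the 3 with the highest mean among the rest, are given in full. In other lists the called genes with the smallest adjusted p are named, up to 4 per direction, and in marker lists 2. Some genes that the rule names are not reported here. Genes named beyond this rule (receptors, kinases, Cgas, Sting1, Ddx58, Mavs and the families) were chosen after their values were seen. Alternatives were a threshold of 0.01, a test against a 1.5-fold change, a floor of 50 on the mean, a t distribution with 3 degrees of freedom, leaving out genes with no reads in 1 group, and 2 other zero points. The calculation was tested on simulated data. Python 3.11.15, pandas 2.3.3, numpy 2.4.6, scipy 1.17.1 and matplotlib 3.10.9 were used.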

Additional observations from a re-analysis of the deposited data

How the results depend on the processing

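Of the 37 log2 fold changes, 37 kept sign and side of the threshold without genes that had no reads in 1 group, 36 with a minimum mean of 50 and 32 at an adjusted p under 0.01. By the Wald test Ifitm1 passed with that minimum (adjusted p = 0.047) and with the zero point at the median of highly counted genes, those with means of 10000 or more (adjusted p = 0.042). On this last scale Oas2 changed sign to -0.048. Members higher numbered 1 at 0.01. Against a 1.5-fold change 5 were lower and 0 higher (5 and 2 at an unadjusted p under 0.05). Over all genes the counts there were 588 and 521 (1155 and 1171 unadjusted). When the statistic was read against a t distribution (3 df), 0 were lower and 0 higher (10 and 1 unadjusted). Of all 23022 genes 0 passed (1224 lower and 1289 higher unadjusted), and the smallest adjusted p over all genes was 0.372.

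With the zero point on plasma protein genes 5 were lower and 8 higher, beside 835 lower and 7089 higher of all 23022 genes. Values that changed sign there were Ifit2 0.15, Isg15 0.25, Irf7 0.57, Irf9 0.52, Oasl2 0.19, Bst2 0.41, Ifi35 0.58, Ifih1 0.25, Gbp7 0.24, Eif2ak2 0.25, Rnf213 0.15 and Ifitm2 0.45, as the added 0.60 exceeds their distance from 0. Stat2, Irf1, Usp18, Gbp2, Irgm1, Parp14 and Ifitm3 did not pass there.

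In the receptor and JAK-STAT list the lower genes numbered 2 with the minimum mean and with the zero point on highly counted genes, and 0 against a 1.5-fold change (0 unadjusted), with the t distribution (1 unadjusted) and on the plasma scale (0 unadjusted), where 11 were higher. In the sensing list they likewise numbered 2 and 2, then 0, 0 and 0 (1 unadjusted each); higher genes numbered 0 with the t distribution (1 unadjusted) and 13 on the plasma scale. Of the further interferon-stimulated genes 2 were lower against a 1.5-fold change, 0 with the t distribution (9 unadjusted) and 4 on the plasma scale; higher ones numbered 1 at 0.01, 1 against a 1.5-fold change, 0 with the t distribution (1 unadjusted) and 9 on the plasma scale. Over all genes, 588 were lower and 521 higher against a 1.5-fold change, and 835 were lower and 7089 higher on the plasma scale. Restricting the background to genes of at least the lowest mean in the set, chosen after seeing the data, moved the share lower to 10.3% and higher to 11%. No paired analysis was possible because the groups share no replicate numbers and the table holds no single libraries; leaving out each library was not possible for the same reason.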

Other observations

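Genes next to the interferon-stimulated genes on the chromosome were also described. The 52 nearest measured protein-coding neighbours outside the gene lists had a median log2 fold change of -0.35, and 9 of them (17.3%) were lower and 1 (1.92%) higher in 4N liver, beside 7.41% and 7.94% of all genes. These neighbours include 4 Gbp, Ifit or Ifitm genes (Ifit1bl2, Gbp2b, Ifitm5 and Ifitm6), none of which passed. Without them the median of the other 48 was -0.36, and the counts of 9 lower and 1 higher could not change. The 4 were picked by symbol alone. Relatives of the interferon-stimulated genes under other symbols were not looked for and can remain among the 48. F830016B08Rik, 1 of the 9 lower neighbours, was not checked for such kinship. On the plasma protein scale the median of the 52 was 0.26, with 5 lower and 12 higher. Over all 23022 genes the median there was 0.60, with 835 lower and 7089 higher. The 18 neighbours that belong to the lists themselves had 3 lower and 1 higher. Pck1, the gluconeogenic enzyme gene beside Zbp1, stood at -9.10 in the authors' deposited table (adjusted p = 1.1e-37), and F830016B08Rik beside Iigp1 at -2.76 (adjusted p = 5e-10). The neighbours were picked by position in GRCm38 and their values were seen before they were named.

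The chemokine genes Cxcl9 and Cxcl10, whose products draw T cells and are induced by interferon gamma, were lower. Cxcl10 had 157 normalized counts in 4N livers and 463 in WT livers, with -1.56 in the authors' deposited table (SE 0.47, adjusted p = 0.0093). Cxcl9 had 9.47 in 4N livers and 68.0 in WT livers, with -2.84 in the authors' deposited table (SE 1.03, adjusted p = 0.04). Rtp4, another interferon-induced gene, had 602 in 4N livers and 1069 in WT livers and stood at -0.83 in the authors' deposited table (adjusted p = 0.041). All 3 calls were lost on the plasma protein scale, at -0.96 for Cxcl10, -2.24 for Cxcl9 and -0.23 for Rtp4. These 3 genes were named after their values were seen.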
